A study of Mus musculus with 20 samples.

Results

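The Cyp1, Cyp2 and Cyp3 genes of the mouse liver, which encode the cytochromes P450 that oxidise drugs, pollutants, steroids and fatty acids, were followed through 5 genotype groups of mice fasted for 24 h. The members were taken by name and biotype, as the protein-coding genes whose symbol is Cyp1, Cyp2 or Cyp3 followed directly by a letter. This rule, which uses no measured value, found 62 of the 56748 genes in the count table, and 44 of them had enough counts to be among the 15669 genes tested. The Control group carried floxed Cpt1a, Cpt1b and Cpt2 alleles. The other groups lacked, in the liver only, Cpt1a and Cpt1b (Cpt1DKO), Cpt2 (Cpt2KO), all of Cpt1a, Cpt1b and Cpt2 (TKO), or Cpt2 together with Ppara (Cpt2PparaDKO). For this last group the label writes PPAR and the design text Ppara. The design text calls the controls littermates. The sources used here give no age, no sex and no name of the Cre line that deleted the genes. No group analysed here lacked Ppara alone. Each group held 4 libraries of whole-liver RNA. The labels do not say that they came from separate animals, so p-values measure only the spread between these libraries, which may be technical. Cpt2KO and Cpt2PparaDKO each held libraries of 2 sex patterns, described below, so each of these groups drew on more than 1 animal. Carnitine palmitoyltransferases 1 and 2, encoded by the Cpt genes, pass long-chain fatty acids into mitochondria, and Ppara encodes PPARalpha, a nuclear receptor that turns on lipid oxidation genes in fasting.

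Cytochromes P450 of these families sit in the membrane of the endoplasmic reticulum and carry a haem that binds oxygen. They take electrons from P450 oxidoreductase, the product of Por. Their genes are switched on by receptors that sense foreign chemicals: the aryl hydrocarbon receptor AHR for Cyp1 genes, CAR (Nr1i3) for Cyp2b and several Cyp2c genes, and PXR (Nr1i2) for Cyp3a genes. In the mouse liver many of them are made mainly by hepatocytes around the central vein, and some differ by sex under the pattern of growth hormone.

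Total counts ran from 14129595 to 20273303 in 19 libraries and reached 36452673 in replicate 1 of Cpt2PparaDKO. Xist, the RNA of the inactive X chromosome of female cells, stood at 981 CPM (counts per 1000000 of scaled library size) in replicate 3 of Cpt2KO and at 1266 CPM in replicate 4 of Cpt2PparaDKO, and at 1.05 CPM or less in the other 18. Summed over 4 Y-linked genes, the same 2 libraries gave 0.109 and 0 CPM against 172 to 260.3 CPM elsewhere. Results of members that rest on these 2 libraries with Xist are given with and without them. The targeted genes checked the labels. Cpt1a fell in Cpt1DKO (log2 fold change -2.74 ± 0.19, ± SE here and for each log2 fold change) and TKO (-2.92 ± 0.19), and Cpt2 fell in Cpt2KO (-0.92 ± 0.18), TKO (-1.27 ± 0.18) and Cpt2PparaDKO (-2.88 ± 0.20). Ppara fell in Cpt2PparaDKO (-1.67 ± 0.24). Cpt1b, a muscle form, was too low to check, at 0.543 ± 0.215 CPM in Control and 0.881 ± 0.217 in Cpt1DKO. Hepatocyte markers (Alb, Apoa1, Ttr, Serpina1c and Tat) summed to 70377 to 87217 CPM in Control libraries. They summed to 66037 to 73971 CPM for Cpt1DKO, which overlapped Control. The sums were 33634 to 62972 CPM for Cpt2KO, 29755 to 55677 for TKO and 26574 to 34221 for Cpt2PparaDKO, wholly below Control. Alb was the largest part of these sums, with a mean of 62833 ± 6371 CPM in Control and 33172 ± 11102 in Cpt2KO. Apoa1 did not fall with Alb in Cpt2KO, at 10177 ± 2913 CPM against 8865 ± 691 in Control.

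Per length of transcript, in the deposited FPKM values, Cyp2e1 had the highest mean level in Control at 5288 ± 1040 FPKM (SD, n = 4). Cyp2d9 at 834 ± 120, Cyp3a25 at 790 ± 154 and Cyp2a5 at 737 ± 183 FPKM came next, and these means lay within an SD of each other. Cyp2d26 (613 ± 99.8), Cyp3a11 (604 ± 96.6) and Cyp2d10 (574 ± 74.1) followed likewise, above Cyp2f2 at 380 ± 25.1 FPKM. Cyp2e1, which oxidises ethanol and acetaminophen and metabolises acetone in fasting, kept the first place in all 5 groups, at 1544 ± 659 FPKM in Cpt2PparaDKO. In that group Cyp2a5 came next at 1095 ± 745 FPKM.

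The 62 members together made up 28602 ± 2606 CPM in Control. The sum was 20915 ± 3694 CPM in Cpt1DKO, 16345 ± 2711 in TKO, 13515 ± 2334 in Cpt2KO and 12047 ± 2369 in Cpt2PparaDKO. Libraries of the last 3 groups reached 20384 CPM at most, below the lowest Control library at 25228 CPM, whereas the highest Cpt1DKO library, at 25520 CPM, overlapped Control. In whole-liver RNA, fewer cells of a type and less RNA per cell cannot be told apart. The subfamilies did not keep their proportions. Cyp2c genes summed to 2690 ± 478 CPM in Control, 528 ± 225 in Cpt2KO and 1446 ± 532 in Cpt2PparaDKO. Cyp3a genes summed to 5162 ± 823, 1633 ± 533 and 1192 ± 267 CPM in the same groups. Cyp2a genes summed to 2415 ± 510 CPM in Control and 3380 ± 2744 CPM in Cpt2PparaDKO, and to 2020 ± 439 CPM in the latter without its library with Xist, which is below the Control mean.

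**Figure D1:**
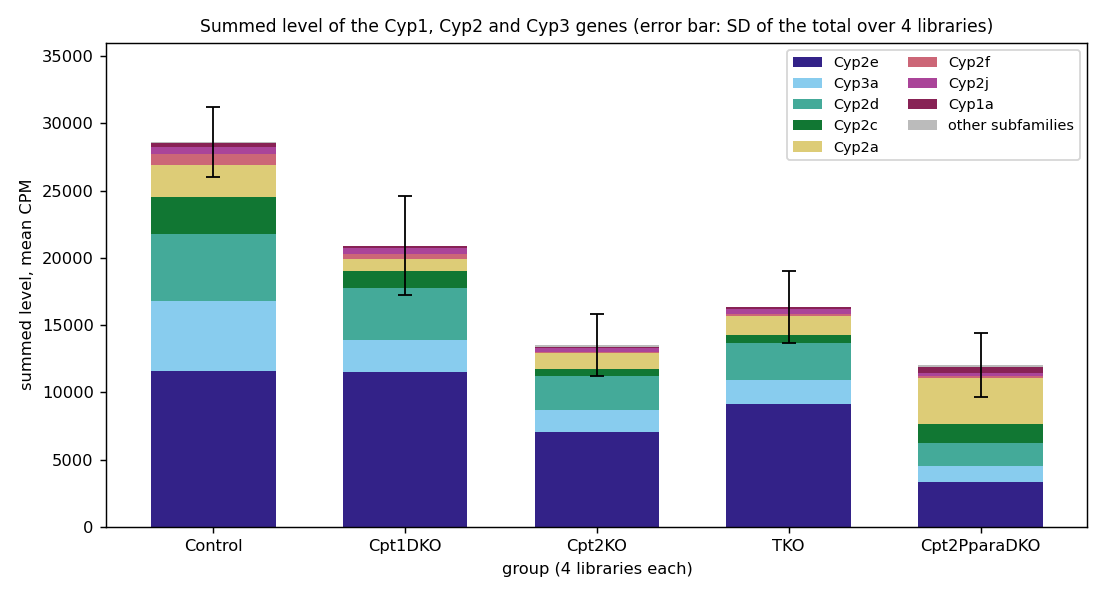
Summed level in CPM of the 62 Cyp1, Cyp2 and Cyp3 genes in each group, as bars stacked by subfamily (means over 4 libraries), with the SD of the total as error bar. The total is 28602 CPM in Control and 12047 CPM in Cpt2PparaDKO, where the Cyp2e part is smallest.

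Cpt1DKO livers had 9 members lower than Control and none higher. The 9 were Cyp1a2, Cyp2a5, Cyp2c23, Cyp2c50, Cyp2c54, Cyp2c70, Cyp2d40, Cyp2r1 and Cyp3a11, while Cyp2e1 stood at 11494 ± 2007 CPM against 11618 ± 2253 in Control. Of the 44 tested members that is 20.5%, and among all genes tested 3.1% were called lower and 2.44% higher, at an adjusted p under 0.05 in edgeR's quasi-likelihood test. The median log2 fold change of the 44 was -0.76, and that of all tested genes -0.01. At an unadjusted p under 0.05, 21 members were lower and 0 higher, and DESeq2 called 14 lower and 0 higher. The count of 9 was 2 without replicate 1 or without replicate 2 of Cpt1DKO, 4 without Control replicate 3 or 4, and 15 without the libraries with Xist.

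Cpt2KO livers had 30 of the 44 members lower than Control. All 4 tested Cyp3a genes and 11 of 13 tested Cyp2c genes were lower, as were Cyp1a2, Cyp2e1, Cyp2f2 and Cyp2j5. Cyp2a4, a steroid hydroxylase known to be higher in females, was the 1 member called higher, and without the libraries with Xist no member was. Of the 44 members 68.2% were called lower and 2.27% higher in Cpt2KO, beside 17.2% and 16.2% of all genes. The members' median log2 fold change was -1.25 beside -0.01 for all tested genes, and 33 members were called lower without the libraries with Xist.

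In TKO, 27 members (61.4% of the 44 tested) were lower and none was higher, beside 14.4% and 13% of all genes. The lower ones held all 4 tested Cyp3a genes, 10 of 13 Cyp2c genes and 6 of 7 Cyp2d genes, with Cyp1a2 and Cyp2f2. At an unadjusted p under 0.05, 1 member was higher, and DESeq2 called 1 higher. The members' median was -1.22 against -0.01, and 34 members were called lower and none higher without the libraries with Xist.

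Cpt2PparaDKO livers had 24 members lower and 1, Cyp2a4, higher than Control. These were 54.5% and 2.27% of the 44 tested, beside 17.6% and 14.9% of all genes. Cyp2e1, Cyp2d9, the 4 tested Cyp2j genes and the 4 tested Cyp3a genes were among the lower ones. Cyp1a2, Cyp2a5, Cyp2c29, Cyp2c67, Cyp2c70 and Cyp2r1 were not called against Control. The median log2 fold change was -1.07 for the members and 0.00 for all genes. Without the libraries with Xist, 28 members were called lower and 1 higher. The heat map of log2 fold changes sets the 4 comparisons side by side. They share the Control libraries and are not independent of each other.

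**Figure D2:**
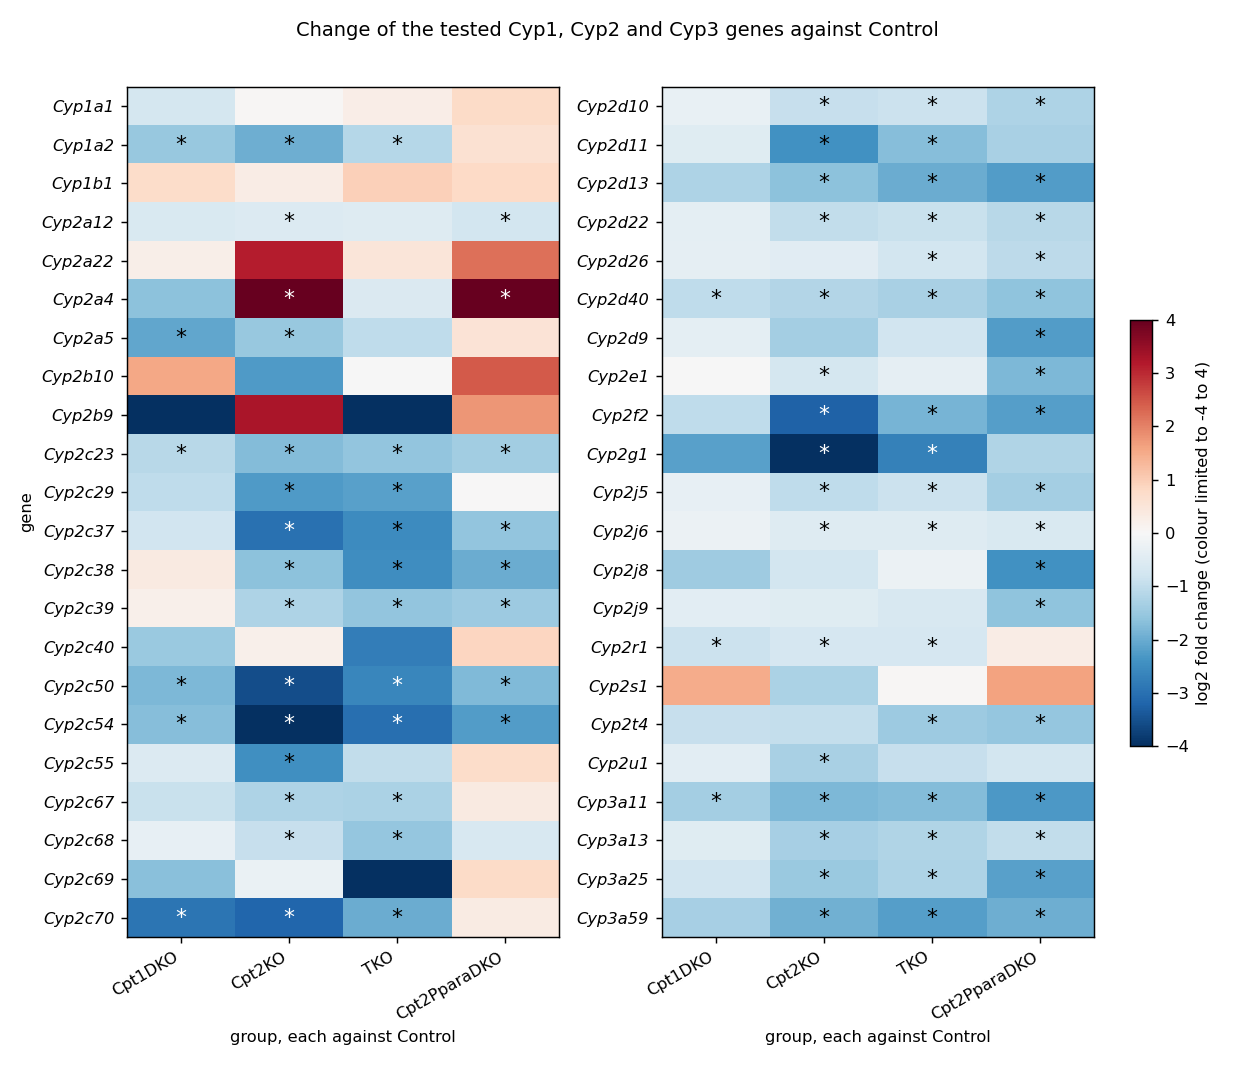
Log2 fold change of the 44 tested genes in each mutant group against Control, as colour (blue lower, red higher, limited to -4 to 4), with an asterisk at an adjusted p under 0.05 in edgeR's quasi-likelihood test. All tested Cyp3a and Cyp2d genes are blue in the Cpt2KO, TKO and Cpt2PparaDKO columns, and Cyp1a2, Cyp2c29, Cyp2c67 and Cyp2c70 have no asterisk in the Cpt2PparaDKO column.

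Cyp1a2, the AHR-driven enzyme that oxidises caffeine and aromatic amines (chr9:57584220-57590986, minus strand, GRCm39), fell in Cpt1DKO, Cpt2KO and TKO and was not called in Cpt2PparaDKO. The Control libraries gave 264, 299, 310 and 353 CPM, and the Cpt1DKO libraries 102, 77.0, 119 and 127 CPM. Cpt2KO libraries stood at 121, 50.7, 71.1 and 73.2 CPM, and those of TKO at 137, 142, 153 and 119 CPM. None of these 12 mutant libraries reached the lowest Control library, whereas those of Cpt2PparaDKO, at 494, 412, 252 and 719 CPM, lay on both sides of the Control range. Log2 fold changes against Control were -1.53 ± 0.26 (adjusted p = 0.00211) for Cpt1DKO, -1.96 ± 0.27 (1.77e-05) for Cpt2KO, -1.15 ± 0.26 (0.00261) for TKO and 0.62 ± 0.26 (0.0751) for Cpt2PparaDKO. Cyp1a1, a strongly inducible AHR target, stayed between 0.338 and 2.02 CPM in all libraries and was called in no comparison. Cyp1b1, mainly an enzyme of other tissues, ranged from 0.208 to 1.95 CPM and was not called either.

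Ahr itself, the receptor for the Cyp1 genes, fell from 67.4 ± 19.2 CPM in Control to 30.1 ± 14.7 in Cpt2KO (log2 fold change -1.16 ± 0.25, adjusted p = 0.00149) and 39.8 ± 6.93 in TKO (-0.76 ± 0.25, 0.0293). It stood at 70.2 ± 14.6 CPM in Cpt2PparaDKO and 50.7 ± 3.56 in Cpt1DKO, neither of which was called against Control. Its part in the Cyp1a2 values was not tested.

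Cyp2c genes, which make epoxides and alcohols from arachidonic acid and oxidise many drugs, lie on chromosome 19. In Cpt2KO the 13 tested had a median log2 fold change of -1.73. Cyp2c54 (chr19:40026384-40062271, minus strand, GRCm39) read 289, 289, 435 and 453 CPM in Control. It read 77.2, 60.6, 214 and 102 CPM in Cpt1DKO, 22.1, 7.83, 30.9 and 11.6 CPM in Cpt2KO and 42.5, 60.9, 40.4 and 37.3 CPM in TKO. Cpt2PparaDKO libraries gave 131, 88.6, 43.6 and 47.6 CPM. All 16 mutant libraries were below Control, and those of Cpt2KO were lowest, with no overlap with TKO or Cpt2PparaDKO. The log2 fold changes against Control, in the order Cpt1DKO, Cpt2KO, TKO and Cpt2PparaDKO, were -1.70 ± 0.46 (adjusted p = 0.0389), -4.34 ± 0.51 (9.05e-06), -3.02 ± 0.48 (0.000223) and -2.24 ± 0.47 (0.00155). The call in Cpt1DKO ended when any 1 library was left out other than Cpt1DKO replicate 3, with an adjusted p of up to 0.134.

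Cyp2c50 and Cyp2c37 are close copies of Cyp2c54. Cyp2c50 averaged 715 ± 163 CPM in Control but 206 ± 103 in Cpt1DKO and 60.5 ± 28.7 in Cpt2KO, then 117 ± 25.8 in TKO and 208 ± 127 in Cpt2PparaDKO, and was called lower in each mutant group. Cyp2c37 averaged 401 ± 119, 236 ± 19.3, 50.5 ± 34.3, 70.6 ± 8.33 and 133 ± 51.6 CPM in the same order and was called in all but Cpt1DKO. The call of Cyp2c50 in Cpt1DKO ended when any 1 library was left out other than Control replicates 1 and 2 and Cpt1DKO replicate 3, with an adjusted p of up to 0.103. Coding sequences of Cyp2c50 and Cyp2c37 were 96.1% identical in the GENCODE M21 transcripts, and Cyp2c54 was 95.1% identical to Cyp2c37 and 95.2% to Cyp2c50, so the assignment of some reads among the 3 genes is uncertain. The same holds for Cyp2c67 and Cyp2c68 (97.2%) and for Cyp2c40 and Cyp2c69 (97.9%).

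Cyp2c29, an arachidonic acid epoxygenase known to respond to CAR, gave 400, 432, 612 and 413 CPM in Control and 235, 181, 273 and 225 CPM in Cpt1DKO. Cpt2KO libraries gave 125, 81.4, 136 and 41.6 CPM and TKO libraries 129, 100, 75.1 and 108 CPM. Cpt2PparaDKO libraries gave 825, 495, 137 and 425 CPM. Cpt1DKO, Cpt2KO and TKO lay wholly below Control, and Cpt2PparaDKO spread across the Control range, with replicate 3 at the top of the Cpt2KO level. Calls were made in Cpt2KO (log2 fold change -2.28 ± 0.42, adjusted p = 0.00043) and TKO (-2.17 ± 0.41, 0.000848). Cpt2PparaDKO gave 0.02 ± 0.40 (0.976). Cyp2c67 averaged 188 ± 22.7 CPM in Control and was lower in Cpt2KO (80.9 ± 18.7) and TKO (78.5 ± 25.4), with 240 ± 90.9 CPM in Cpt2PparaDKO.

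Cyp2c70, the enzyme by which mice make muricholic bile acids, gave 38.3, 42.1, 55.7 and 28.5 CPM in Control. Cpt1DKO libraries held 5.76, 6.34, 4.95 and 4.68 CPM, and those of Cpt2KO 3.37, 1.92, 6.24 and 6.75 CPM. TKO gave 4.79, 25.2, 7.09 and 4.71 CPM and Cpt2PparaDKO 34.3, 25.1, 16.1 and 131 CPM. Only replicate 2 stood near Control in TKO, and in Cpt2PparaDKO the library with Xist was highest. The log2 fold changes in the order Cpt1DKO, Cpt2KO, TKO and Cpt2PparaDKO were -2.92 ± 0.68 (adjusted p = 0.0212), -3.17 ± 0.69 (0.0021), -1.99 ± 0.65 (0.0307) and 0.33 ± 0.61 (0.715), and the last was -0.68 ± 0.52 (0.358) without the libraries with Xist. The call in Cpt1DKO ended without Control replicate 3 and likewise without Cpt1DKO replicate 1, 2 or 4, with an adjusted p of up to 0.0718, and that in TKO ended when any 1 library was left out other than Control replicates 1 and 4 and TKO replicate 2, with an adjusted p of up to 0.0905.

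Of the other Cyp2c genes, Cyp2c23, an arachidonic acid epoxygenase, was called lower in every mutant group. It averaged 198 ± 33.8 CPM in Control and 90.9 ± 28.6 in Cpt1DKO and 59.7 ± 19.1 in Cpt2KO, then 66.7 ± 5.72 in TKO and 75.3 ± 24.5 in Cpt2PparaDKO. The call in Cpt1DKO ended without Control replicate 3 or 4 and likewise without Cpt1DKO replicate 1 or 2, with an adjusted p of up to 0.0763. Cyp2c38 and Cyp2c39 were called lower in Cpt2KO, TKO and Cpt2PparaDKO and not in Cpt1DKO, where they stood at 111 ± 29.0 and 12.2 ± 1.97 CPM beside 87.6 ± 17.7 and 10.6 ± 2.24 in Control. Cyp2c68 was lower in Cpt2KO and TKO, and Cyp2c55, at 1.60 CPM or less in every library, in Cpt2KO. In Cpt2KO the call of Cyp2c55 was lost without the libraries with Xist (adjusted p = 0.0545) and was made in 3 of 8 fits that left out 1 library. That of Cyp2c39 ended without Control replicate 1 or 2 and likewise without Cpt2KO replicate 2 or 4, with an adjusted p of up to 0.0792, and was also lost with no count filter and in a 2-group fit. In Cpt2KO the call of Cyp2c68 was lost when Control replicate 3 was left out (adjusted p = 0.0505), and that of Cyp2c38 was lost in a 2-group fit.

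**Figure D3:**
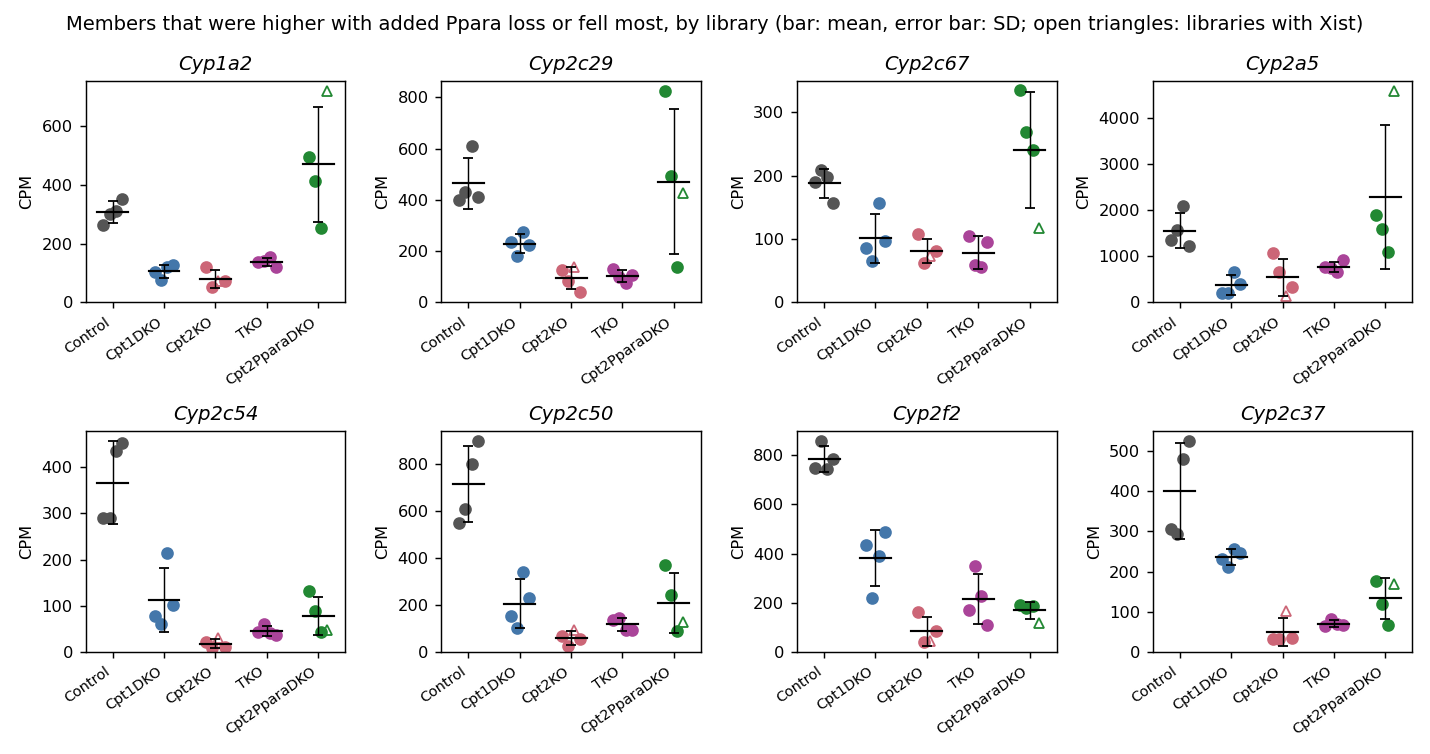
Level in CPM of 8 genes in each of the 20 libraries (points; open triangles are the 2 libraries with Xist), with the group mean as a bar and the SD as error bar. The means of Cyp1a2, Cyp2c29, Cyp2c67 and Cyp2a5 are at least as high in Cpt2PparaDKO as in Control (for Cyp2a5 2292 ± 1563 CPM, and 1529 ± 405 without the library with Xist, beside 1555 ± 385), while those of Cyp2c54, Cyp2c50, Cyp2f2 and Cyp2c37 are below it.

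The Cyp2a genes on chromosome 7 moved apart. Cyp2a5, which hydroxylates coumarin (chr7:26534730-26542973, plus strand, GRCm39), gave 1345, 1571, 2088 and 1215 CPM in Control and 209, 201, 668 and 396 CPM in Cpt1DKO. It stood at 1067, 649, 143 and 325 CPM in Cpt2KO, at 762, 738, 662 and 912 CPM in TKO and at 1904, 1582, 1099 and 4584 CPM in Cpt2PparaDKO. The Cpt1DKO, Cpt2KO and TKO libraries were all below Control, and the library with Xist was the lowest of Cpt2KO but the highest of Cpt2PparaDKO. Calls were made in Cpt1DKO (log2 fold change -2.08 ± 0.55, adjusted p = 0.0357) and Cpt2KO (-1.51 ± 0.54, 0.0402). TKO gave -1.02 ± 0.53 (0.177) and Cpt2PparaDKO 0.56 ± 0.53 (0.449), which was -0.00 ± 0.41 without the libraries with Xist. The call in Cpt1DKO ended when any 1 library was left out other than Cpt1DKO replicate 3, with an adjusted p of up to 0.126, and that in Cpt2KO ended when any 1 library was left out other than Cpt2KO replicate 1, with an adjusted p of up to 0.106.

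Cyp2a4, a testosterone hydroxylase of female liver (chr7:26006594-26014513, plus strand, GRCm39), gave 1.22, 0.405, 0.416 and 2.69 CPM in Control, at most 0.639 CPM in Cpt1DKO and at most 1.97 CPM in TKO. Cpt2KO libraries gave 3.17, 28.6, 145 and 0.692 CPM and Cpt2PparaDKO libraries 5.74, 45.2, 117 and 2051 CPM. All 4 Cpt2PparaDKO libraries exceeded Control, those without Xist included, and the highest value of each of these groups came from its library with Xist. The log2 fold change was 8.83 ± 2.01 in Cpt2PparaDKO (adjusted p = 0.0035) and 5.54 ± 1.21 (0.00392) without those libraries. In Cpt2KO it was 5.18 ± 1.79 (0.0362) and 3.17 ± 1.2 (0.0535) without them, which is no longer a call. Over 20 libraries the Cpt2KO call was made in 3 of 8 fits that left out 1 library, and was lost without any 1 Control library. Cyp2a12 was called lower in Cpt2KO and Cpt2PparaDKO, at 590 ± 25.9 and 520 ± 196 CPM against 856 ± 147. Cpt1DKO and TKO stood at 565 ± 53.7 and 592 ± 111 CPM and were not called (adjusted p = 0.0795 and 0.0512). Without the libraries with Xist, Cyp2a12 was called lower in every mutant group. The call of Cyp2a12 in Cpt2KO ended when any 1 library was left out other than Control replicate 4, with an adjusted p of up to 0.129. Cyp2a22 ranged from 0.0675 to 62.9 CPM and was called nowhere.

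Cyp2a4 and Cyp2a5 are near copies, and their promoters are shown because the genes differed so much in level. The coding sequences were 94.8% identical, and 11.2% of the 100-base windows of Cyp2a4 also occurred in Cyp2a5, so part of their reads cannot be assigned with certainty. The 250 bases before the start, from RefSeq (GRCm38.p6, 5′ to 3′), were 97.6% identical between Cyp2a4 (chr7:26306942-26307191, plus strand) and Cyp2a5 (chr7:26835089-26835338, plus strand). The windows are offset by 1 base, and capitals mark the 4 substituted bases.
Cyp2a4: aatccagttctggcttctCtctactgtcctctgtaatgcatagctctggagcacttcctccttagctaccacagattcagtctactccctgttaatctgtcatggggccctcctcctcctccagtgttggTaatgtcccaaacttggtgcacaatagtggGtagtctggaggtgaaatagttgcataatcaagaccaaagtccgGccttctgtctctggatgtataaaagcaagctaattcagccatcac
Cyp2a5: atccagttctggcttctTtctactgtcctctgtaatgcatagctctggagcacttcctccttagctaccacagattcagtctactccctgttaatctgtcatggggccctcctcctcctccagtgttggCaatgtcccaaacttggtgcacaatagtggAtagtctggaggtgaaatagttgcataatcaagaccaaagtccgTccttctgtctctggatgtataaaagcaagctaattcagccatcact

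Cyp2b genes, the classic targets of CAR, were low and uneven. Cyp2b10 (chr7:25597045-25626049, plus strand, GRCm39) gave 15.7, 16.1, 4.92 and 9.77 CPM in Control, 59.0, 62.7, 2.95 and 12.3 CPM in Cpt1DKO and 1.08, 1.81, 4.94 and 1.67 CPM in Cpt2KO. TKO libraries gave 16.9, 19.2, 6.58 and 3.57 CPM and Cpt2PparaDKO libraries 23.7, 13.0, 3.88 and 217 CPM. The highest of these, in Cpt2PparaDKO, was the library with Xist. Every mutant group overlapped Control, Cpt2KO by its library with Xist alone, while its other 3 libraries were below Control. Cyp2b10 was not called against Control in any group, and without the libraries with Xist Cpt2KO gave -2.90 ± 1.09 (adjusted p = 0.0532) on the log2 scale.

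Cyp2b9 and Cyp2b13, known as female-biased genes, marked single libraries. Cyp2b9 (chr7:25872836-25910086, plus strand, GRCm39) reached 363 CPM in replicate 3 of Cpt2KO and 130 CPM in replicate 4 of Cpt2PparaDKO, the libraries with Xist. It was 35.7 CPM in Control replicate 4 and 3.78 CPM or less in the other 17. Cyp2b13 had 1253 and 846 counts (68.0 and 32.8 CPM) in the libraries with Xist, 5 counts in Control replicate 4 and 0 in the other 17. A count of 0 allows up to 0.0706 to 0.239 CPM in the 20 libraries (3 counts, counting error only). Cyp2b9 was not called in any comparison over the 20 libraries. Against Control its log2 fold change in Cpt2PparaDKO was 1.77 ± 2.12 (adjusted p = 0.56), and -8.28 ± 2.49 (0.0239) without the libraries with Xist. The remaining Cpt2PparaDKO libraries were then at or near 0, and Control replicate 4 held most of the Control counts.

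The pair shared 99.2% of the 250 promoter bases and 92.7% of the coding sequence. Promoters of Cyp2b9 (chr7:26173159-26173408, plus strand) and Cyp2b13 (chr7:26061245-26061494, plus strand) are shown because both genes were highest in the same libraries, from RefSeq, GRCm38.p6, 5′ to 3′, with the 2 substituted bases in capitals.
Cyp2b9: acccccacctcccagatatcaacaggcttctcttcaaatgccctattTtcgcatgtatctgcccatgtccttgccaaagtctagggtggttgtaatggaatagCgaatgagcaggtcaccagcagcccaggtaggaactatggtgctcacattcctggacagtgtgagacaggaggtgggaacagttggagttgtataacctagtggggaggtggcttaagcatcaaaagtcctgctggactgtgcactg
Cyp2b13: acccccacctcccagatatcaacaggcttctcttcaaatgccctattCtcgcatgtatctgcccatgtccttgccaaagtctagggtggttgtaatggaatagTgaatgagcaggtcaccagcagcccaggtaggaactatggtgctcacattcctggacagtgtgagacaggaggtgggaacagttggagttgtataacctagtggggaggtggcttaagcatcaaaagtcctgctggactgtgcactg
Of the other Cyp2b genes, Cyp2b19 had 1 count in each of 2 libraries and Cyp2b23 had none.

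Cyp2d genes on chromosome 15, relatives of the human drug-metabolising CYP2D6, fell in the groups without Cpt2. Of the 7 tested, 5 were lower in Cpt2KO, 6 in TKO and 6 in Cpt2PparaDKO, against 1, Cyp2d40, in Cpt1DKO. Cyp2d10 gave 865, 855, 1099 and 1030 CPM in Control. It gave 480, 587, 488 and 465 CPM in Cpt2KO, 568, 608, 509 and 444 CPM in TKO and 431, 465, 428 and 307 CPM in Cpt2PparaDKO. These 12 mutant libraries were all below Control (log2 fold changes -0.93 ± 0.16, -0.85 ± 0.16 and -1.24 ± 0.16), whereas Cpt1DKO libraries at 644 to 979 CPM overlapped it. Cyp2d40 averaged 50.9 ± 4.89 CPM in Control beside 25.0 ± 6.90 in Cpt1DKO and 22.7 ± 7.58 in Cpt2KO, then 20.6 ± 3.82 in TKO and 16.8 ± 2.53 in Cpt2PparaDKO, and was called lower in each mutant group. Cyp2d22 and Cyp2d13 were lower in Cpt2KO, TKO and Cpt2PparaDKO, and Cyp2d26 in TKO and Cpt2PparaDKO. The call of Cyp2d13 in Cpt2KO ended without Cpt2KO replicate 4, with an adjusted p of up to 0.0573, and that of Cyp2d11 in TKO was made in 3 of 8 fits that left out 1 library (adjusted p up to 0.196).

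Cyp2d9, a testosterone hydroxylase known to be higher in males, had the highest mean of the Cyp2d genes in Control. Control libraries gave 2012, 2420, 1967 and 2634 CPM, Cpt1DKO libraries 1537, 1527, 1839 and 2057 CPM and TKO libraries 1552, 1519, 1195 and 1019 CPM. Cpt2KO gave 1380, 759, 78.9 and 1284 CPM and Cpt2PparaDKO 828, 643, 418 and 18 CPM. The lowest library of Cpt2KO and that of Cpt2PparaDKO were those with Xist, and the remaining Cpt2KO, TKO and Cpt2PparaDKO libraries were still below every Control library. Over 20 libraries Cpt2PparaDKO was the 1 mutant group called (log2 fold change -2.24 ± 0.79, adjusted p = 0.0395). Without the libraries with Xist it was -1.82 ± 0.24 (1.34e-05), and Cpt2KO (-0.98 ± 0.23, 0.00214) and TKO (-0.77 ± 0.21, 0.00738) were called too. Over 20 libraries the call in Cpt2PparaDKO ended when any 1 library was left out other than Cpt2PparaDKO replicates 1 and 4, with an adjusted p of up to 0.0869.

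Cyp2e1 (chr7:140343652-140354900, plus strand, GRCm39) fell in Cpt2KO and further in Cpt2PparaDKO. Control libraries gave 9203, 10228, 13182 and 13858 CPM and Cpt1DKO libraries 10187, 10005, 14349 and 11436 CPM. Cpt2KO gave 7506, 6922, 9003 and 4905 CPM, TKO 8252, 11199, 8387 and 8573 CPM and Cpt2PparaDKO 4780, 4201, 2936 and 1536 CPM. Cpt2KO libraries were just below Control and Cpt2PparaDKO libraries far below, while replicate 2 of TKO lay in the Control range. Log2 fold changes were -0.71 ± 0.26 in Cpt2KO (adjusted p = 0.0418), -0.35 ± 0.26 in TKO (0.35) and -1.79 ± 0.27 in Cpt2PparaDKO (4.95e-05). The call in Cpt2KO ended when any 1 library was left out other than Control replicate 1 and Cpt2KO replicate 3, with an adjusted p of up to 0.133.

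Cyp2f2, which activates naphthalene and in liver marks hepatocytes near the portal vein, gave 748, 858, 743 and 784 CPM in Control and 434, 221, 390 and 486 CPM in Cpt1DKO. Cpt2KO libraries gave 164, 40.0, 43.4 and 87.1 CPM, TKO libraries 169, 350, 229 and 110 CPM and Cpt2PparaDKO libraries 191, 180, 187 and 119 CPM. No mutant library reached Control. Calls were made in Cpt2KO (log2 fold change -3.23 ± 0.43, adjusted p = 2.16e-05), TKO (-1.87 ± 0.41, 0.00229) and Cpt2PparaDKO (-2.21 ± 0.41, 0.000582). Cpt1DKO missed the threshold at -1.03 ± 0.40 (0.138).

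Among Cyp2j genes, Cyp2j5, an epoxygenase of arachidonic acid, fell from 457 ± 26.3 CPM in Control to 225 ± 36.4 in Cpt2KO, 252 ± 38.6 in TKO and 178 ± 30 in Cpt2PparaDKO. Cyp2j6 was lower in these 3 groups, from 64.5 ± 7.11 to 44.9 ± 4.16, 44.9 ± 6.60 and 42.0 ± 4.77 CPM. Against Control, Cyp2j9 was called in Cpt2PparaDKO alone, with libraries at 8.07, 12.9, 13.7 and 5.16 CPM beside 26.6, 28.1, 33.8 and 31.8 CPM (log2 fold change -1.60 ± 0.26, adjusted p = 0.00011). Without the libraries with Xist it was also called in Cpt2KO and TKO. Cyp2r1, the vitamin D 25-hydroxylase, averaged 10.8 ± 1.11 CPM in Control. It was lower in Cpt1DKO (6.0 ± 1.14 CPM), Cpt2KO (6.83 ± 1.17) and TKO (6.83 ± 2.27) and stood at 13.4 ± 1.41 CPM in Cpt2PparaDKO. Its call in Cpt1DKO ended without Control replicate 4 and likewise without Cpt1DKO replicate 1 or 2, with an adjusted p of up to 0.0823. In Cpt2KO the Cyp2r1 call ended without Cpt2KO replicate 1, with an adjusted p of up to 0.0526, and in TKO it ended without Control replicate 1 and likewise without TKO replicate 2 or 3, with an adjusted p of up to 0.0659. Cyp2u1, which hydroxylates long-chain fatty acids, was lower in Cpt2KO, at 5.66 ± 1.28 against 13.8 ± 6.16 CPM. Cyp2d11, Cyp2g1, Cyp2j8 and Cyp2t4, all under 10 CPM in every library, were each called lower in at least 1 mutant group, and Cyp2s1 was not called. The call of Cyp2j8 in Cpt2PparaDKO was made in 5 and that of Cyp2t4 in TKO in 4 of 8 fits that left out 1 library.

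**Figure D4:**
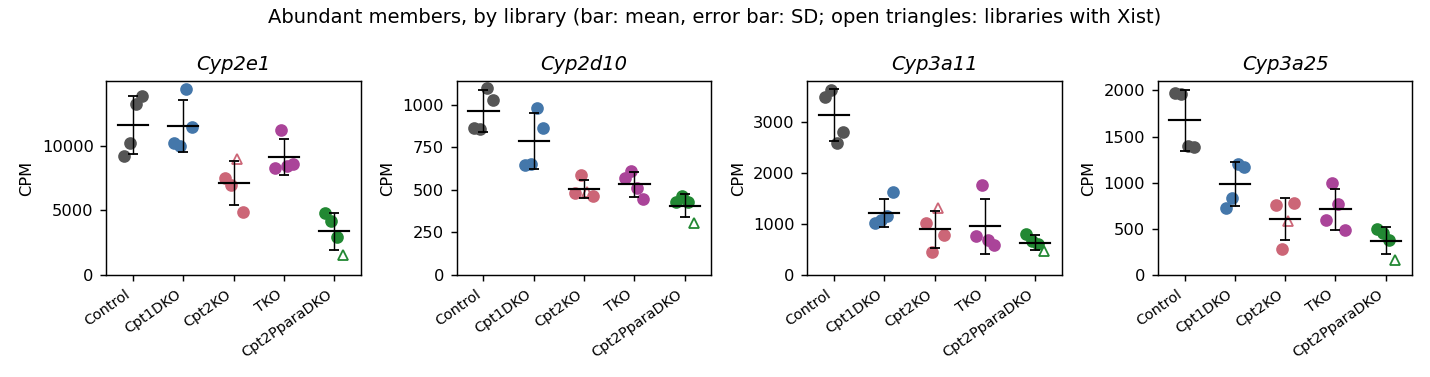
Level in CPM of Cyp2e1, Cyp2d10, Cyp3a11 and Cyp3a25 in each library (points; open triangles are the libraries with Xist), with the mean as a bar and the SD as error bar. Cyp3a11 is below Control in every mutant library, whereas Cyp2e1 in Cpt1DKO overlaps Control and is lowest in Cpt2PparaDKO.

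Cyp3a genes, the PXR targets that clear many drugs and bile acids, fell in Cpt2KO, TKO and Cpt2PparaDKO, and Cyp3a11 (chr5:145791236-145816774, minus strand, GRCm39) also in Cpt1DKO. Cyp3a11 gave 3503, 3634, 2596 and 2808 CPM in Control and 1014, 1071, 1166 and 1621 CPM in Cpt1DKO. Cpt2KO gave 1022, 451, 1319 and 795 CPM, TKO 774, 1767, 682 and 589 CPM and Cpt2PparaDKO 812, 661, 603 and 473 CPM. No mutant library reached Control. Log2 fold changes in the order Cpt1DKO, Cpt2KO, TKO and Cpt2PparaDKO were -1.36 ± 0.32 (adjusted p = 0.0187), -1.81 ± 0.33 (3e-04), -1.72 ± 0.33 (0.000647) and -2.30 ± 0.33 (4.49e-05). The call in Cpt1DKO ended without Control replicate 2 and likewise without Cpt1DKO replicate 1 or 2, with an adjusted p of up to 0.0746. Cyp3a25 averaged 1677 ± 332 CPM in Control and 985 ± 240, 603 ± 228, 712 ± 222 and 374 ± 149 CPM in those groups, and its libraries did not overlap Control in any of them, although Cpt1DKO was not called. Cyp3a13 and Cyp3a59 were called lower in Cpt2KO, TKO and Cpt2PparaDKO. Cyp3a25 and Cyp3a59 were 97.5% identical in coding sequence, so their split is uncertain.

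Cyp3a41a, Cyp3a41b and Cyp3a44, female Cyp3a forms, were counted almost only in the libraries with Xist. Cyp3a44 had 907 counts (35.2 CPM) in replicate 4 of Cpt2PparaDKO and 52 counts (2.82 CPM) in replicate 3 of Cpt2KO, and 2 counts or fewer elsewhere. In the same order Cyp3a41a had 874 and 39 counts and Cyp3a41b 478 and 188, with 0 in the other 18 libraries. These 2 genes were 99.9% identical in coding sequence, and 88.4% of the 100-base windows of Cyp3a41a occurred in Cyp3a41b, so their split is uncertain. Cyp3a16, another form of this kind, had 54 counts (2.10 CPM) in replicate 4 of Cpt2PparaDKO. None of these 4 genes passed the filter on low counts, and no fold change is given.

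The promoter of Cyp3a11 (chr5:145879855-145880104, minus strand), lower in each mutant group, is shown beside those of Cyp3a41a (chr5:145720137-145720386, minus strand) and Cyp2c70 (chr19:40187287-40187536, minus strand), because all 3 hold the letters CAAAGTCCA, a known form of the HNF4 site, on 1 strand or the other. The match is in capitals. Each is the 250 bases before the start from RefSeq, GRCm38.p6, 5′ to 3′.
Cyp3a11: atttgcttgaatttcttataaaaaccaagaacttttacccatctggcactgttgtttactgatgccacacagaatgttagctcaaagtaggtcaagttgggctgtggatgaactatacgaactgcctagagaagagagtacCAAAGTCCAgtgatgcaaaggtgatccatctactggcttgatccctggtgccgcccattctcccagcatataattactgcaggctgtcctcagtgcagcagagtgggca
Cyp3a41a: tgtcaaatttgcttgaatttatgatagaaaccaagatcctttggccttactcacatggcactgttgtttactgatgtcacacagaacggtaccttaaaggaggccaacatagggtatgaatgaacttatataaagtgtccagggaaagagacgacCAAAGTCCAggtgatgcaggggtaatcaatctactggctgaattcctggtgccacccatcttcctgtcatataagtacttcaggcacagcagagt
Cyp2c70: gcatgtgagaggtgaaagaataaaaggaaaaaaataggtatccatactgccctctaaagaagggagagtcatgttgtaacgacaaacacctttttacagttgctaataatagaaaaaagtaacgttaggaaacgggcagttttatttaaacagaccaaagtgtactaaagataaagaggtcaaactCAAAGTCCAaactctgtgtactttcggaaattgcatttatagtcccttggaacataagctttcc
Searched on both strands, CAAAGTCCA occurred in 0.384% of the 32851 promoters of that table and in 18.9% of the 53 members with an entry, namely Cyp2c40, Cyp2c65, Cyp2c67, Cyp2c68, Cyp2c69, Cyp2c70, Cyp3a11, Cyp3a16, Cyp3a41a, Cyp3a41b. Several of these are copies of one another, so they are not independent. TATAAA occurred in 12.4% of all promoters and in 47.2% of the members'. The nuclear receptor motif AGGTCA was in 14.0% and 28.3%, the AHR core GCGTG in 28.2% and 17.0%, and TTCNNNGAA, the STAT5 form, in 7.02% and 3.77%. Both strands were read for each, and no motif contains another. A match is a string of letters, and binding was not measured.

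Cpt2PparaDKO livers, which lack Ppara on top of Cpt2, had 12 members higher than Cpt2KO livers and 2 lower. These were 27.3% and 4.55% of the 44 tested, beside 12.1% and 12.2% of all genes. The higher ones were 7 Cyp2c genes (Cyp2c29, Cyp2c37, Cyp2c50, Cyp2c54, Cyp2c55, Cyp2c67 and Cyp2c70) with Cyp1a2, Cyp2a5, Cyp2b10, Cyp2g1 and Cyp2r1, and the lower ones were Cyp2e1 and Cyp2j9. No tested Cyp3a or Cyp2d gene was called in either direction. The members' median log2 fold change was 0.35, and that of all genes 0.01. This comparison shares the Cpt2KO libraries with Cpt2KO against Control.

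Cyp1a2 differed by 2.57 ± 0.27 on the log2 scale (adjusted p = 9.32e-07), with every Cpt2PparaDKO library above every Cpt2KO library. Cyp2c70 differed by 3.49 ± 0.69 (0.0016), Cyp2c29 by 2.30 ± 0.42 (0.000614), Cyp2c54 by 2.11 ± 0.47 (0.00351) and Cyp2c67 by 1.57 ± 0.30 (0.000889), again without overlap. Cyp2c37 and Cyp2c50 differed by 1.40 ± 0.35 and 1.78 ± 0.45, with overlap only through the Cpt2KO library with Xist, at 102 and 94.4 CPM. Without the libraries with Xist they differed by 1.87 ± 0.27 (adjusted p = 8.53e-05) and 2.27 ± 0.52 (0.00518). Cyp2e1 changed by -1.07 ± 0.27 (adjusted p = 0.00524) and Cyp2j9 by -1.11 ± 0.25 (0.00316), both without overlap.

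With the 2 libraries with Xist left out, 12 members were higher than in Cpt2KO, of which 9 were the same. Cyp2a5 (log2 fold change 2.07 ± 0.55 over 20 libraries, 1.18 ± 0.44 over 18), Cyp2b10 (4.74 ± 1.26 and 3.16 ± 1.12) and Cyp2g1 lost their calls. Cyp2c23, Cyp2c40 and Cyp2c69 gained one. The lower members were then Cyp2d9, Cyp2e1 and Cyp2j9. Over 20 libraries the call of Cyp2b10 ended without Cpt2PparaDKO replicate 4, with an adjusted p of up to 0.0688. In a fit of these 2 groups alone, 7 members were higher.

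Cpt2KO livers had 13 members lower and 1 higher than Cpt1DKO livers. These were 29.5% and 2.27% of the 44 tested, beside 6.71% and 7.41% of all genes. Lower were the 6 Cyp2c genes Cyp2c29, Cyp2c37, Cyp2c38, Cyp2c39, Cyp2c50 and Cyp2c54, and Cyp2b10, Cyp2d10, Cyp2d11, Cyp2d22, Cyp2f2, Cyp2j5 and Cyp3a13. Cyp2c54 changed by -2.65 ± 0.48 on the log2 scale (adjusted p = 0.00179), Cyp2c37 by -2.23 ± 0.36 (0.00067) and Cyp2f2 by -2.19 ± 0.41 (0.00206), each without overlap. Cyp2a4 was the higher member, at 6.84 ± 2.09 (0.0404), and was also called without the libraries with Xist (4.83 ± 1.43, 0.0298). Cyp3a11, Cyp1a2, Cyp2c70 and Cyp2r1 were not called between these groups. The median log2 fold change of the members was -0.58. The count of 13 was 7 without replicate 2 of Cpt2KO, and Cyp2a4 lost its call when any 1 of 6 libraries was left out. Cyp2d11 was not called without the libraries with Xist (adjusted p = 0.0832). Of 8 fits that left out 1 library, Cyp2d11 and Cyp2b10 were called in 1 each, Cyp2c29 in 2, Cyp2d22 in 3, Cyp2c39 in 5, Cyp2c50 in 6 and Cyp2d10 in 7. The adjusted p reached 0.128 for Cyp2b10 and 0.127 for Cyp2c29.

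Between TKO and Cpt2KO no member was called in edgeR's quasi-likelihood test, beside 0.0191% of all genes called lower and 0.0319% higher, and DESeq2 called 1 member lower and 0 higher. At an unadjusted p under 0.05, 5 members were lower and 4 higher. Cyp2c54 averaged 18.1 ± 10.4 CPM in Cpt2KO and 45.3 ± 10.6 in TKO, and Cyp2c50 60.5 ± 28.7 and 117 ± 25.8 CPM. For both genes every TKO library was above every Cpt2KO library. Cyp2c54 differed by 1.32 ± 0.46 (adjusted p = 0.341) and Cyp2c50 by 0.95 ± 0.45 (0.459) on the log2 scale, which is no call.

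Spread within a group was itself a feature of some members. The 10 tested members with the widest range of log2(CPM + 1) in any group were Cyp2b9 (8.51 in Cpt2KO), Cyp2a4 (8.25 in Cpt2PparaDKO), Cyp2a22 (5.90 in Cpt2KO), Cyp2b10 (5.48 in Cpt2PparaDKO), Cyp2d9 (5.44 in Cpt2PparaDKO), Cyp2c40 (5.19 in Cpt2KO), Cyp2c69 (4.45 in Cpt2KO), Cyp2c38 (3.17 in Cpt2KO), Cyp2c70 (2.95 in Cpt2PparaDKO) and Cyp2a5 (2.89 in Cpt2KO). Each of these ranges lay in Cpt2KO or Cpt2PparaDKO, the 2 groups that hold a library with Xist. Libraries without Xist spread too, as for Cyp2a22 from 0.0675 to 19.1 CPM in Cpt2KO and from 0.137 to 13 CPM in TKO. Without its library with Xist, Cpt2PparaDKO ran from 5.74 to 117 CPM for Cyp2a4. Control ran from 0.0675 to 35.7 CPM for Cyp2b9. Cyp2c40, a female-biased arachidonic acid hydroxylase, gave 13.2, 15.7, 20.7 and 8.66 CPM in Control, 1.42, 0.693, 60.7 and 3.81 CPM in Cpt2KO and 6.21, 5.53, 10.8 and 84.2 CPM in Cpt2PparaDKO. The highest library of each of these mutant groups was that with Xist, and the other Cpt2KO libraries were below Control. Cyp2c69 held 20.8 and 38.3 CPM in the libraries with Xist. Without them both genes were called lower in Cpt2KO, Cyp2c40 at -2.87 ± 0.57 (adjusted p = 0.000954) and Cyp2c69 at -5.13 ± 0.73 (2.48e-05). Both were then called lower in TKO too, at -2.78 ± 0.50 (0.000537) and -4.10 ± 0.57 (2.63e-05). Cyp2c69 was also called lower in Cpt1DKO (-1.67 ± 0.48, 0.0337) and Cpt2PparaDKO (-1.59 ± 0.51, 0.0262), whereas Cyp2c40 was not. Summed over 10 members known to be higher in female liver, single libraries reached 677 CPM in Cpt2KO and 2643 CPM in Cpt2PparaDKO, against 35.8 to 60.5 CPM in Control.

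**Figure D5:**
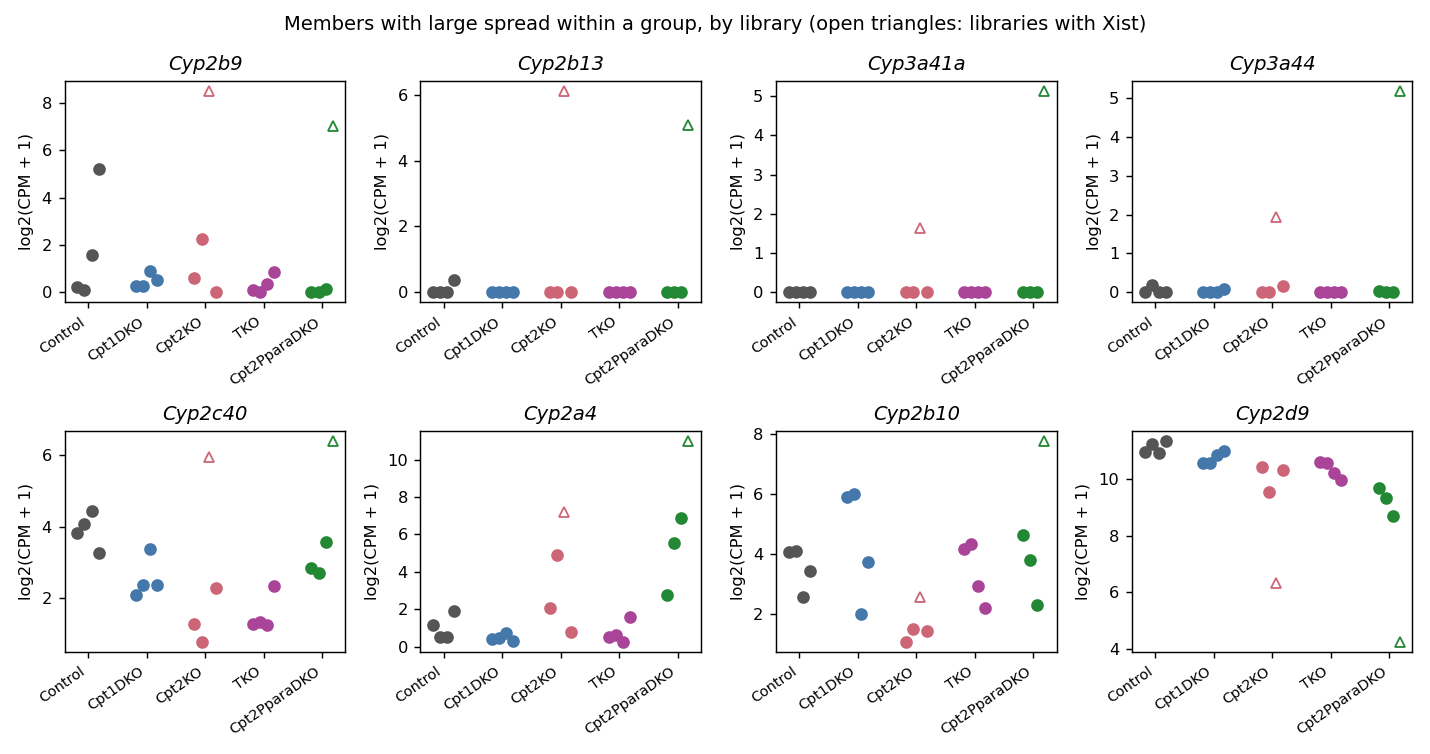
Level as log2(CPM + 1) of 8 members with wide spread within a group, in each library (points; open triangles are the 2 libraries with Xist). Cyp3a41a and Cyp3a44 rise above 1 CPM in the open triangles alone, as does Cyp2b13, Cyp2d9 is lowest in them, and Cyp2a4 also rises in other Cpt2PparaDKO libraries.

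Sex-biased liver genes outside these families were listed for comparison. The 13 male-biased genes, among them Cyp7b1 and Elovl3, summed to 14035 to 20753 CPM across Control libraries and 6391 to 8652 CPM across those of Cpt1DKO. The range was 408 to 10686 CPM for Cpt2KO, 5347 to 11244 for TKO and 316 to 10483 for Cpt2PparaDKO. In the order Cpt1DKO, Cpt2KO, TKO and Cpt2PparaDKO, 0, 3, 1 and 1 of the male-biased genes were called lower. These ranges and calls include the libraries with Xist of Cpt2KO and Cpt2PparaDKO, and are not given without them. All groups share an estimate of spread per gene, so these libraries bear on the calls of Cpt1DKO and TKO too. For the male-biased member Cyp2d9 in TKO against Control, the SE was 0.76 with them and 0.21 without. The summed range of every mutant group lay below that of Control, so few calls do not mean that the sum did not fall. Of 11 female-biased genes 7 were tested, and 0, 1, 0 and 0 were called higher in that order. Beside these stand 3.1%, 17.2%, 14.4% and 17.6% of all genes called lower and 2.44%, 16.2%, 13% and 14.9% called higher. The part of these sex-biased genes in the members' values was not tested.

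Some receptors and partners of these enzymes were lower in Cpt2PparaDKO, whereas Ahr, at 70.2 ± 14.6 CPM against 67.4 ± 19.2 in Control, was not called. Nr1i3, which encodes CAR, averaged 102 ± 27.9 CPM in Control and 38.4 ± 15.7 in Cpt2PparaDKO (log2 fold change -1.41 ± 0.30, adjusted p = 0.00151). Nr1i2, which encodes PXR, averaged 145 ± 20.2 and 73.4 ± 8.39 CPM (-0.99 ± 0.21, 0.00136), and Hnf4a 944 ± 61.3 and 646 ± 19.9 CPM (-0.55 ± 0.15, 0.00685). None of these 3 was called in Cpt1DKO, Cpt2KO or TKO against Control. Rxra, the partner that binds DNA with CAR and PXR, was lower in Cpt2KO, TKO and Cpt2PparaDKO. Por averaged 1020 ± 224 CPM in Control and 512 ± 121 in Cpt2PparaDKO (-0.99 ± 0.24, 0.0031), and Alas1, the first enzyme of haem synthesis, 1036 ± 320 and 456 ± 109 CPM (-1.18 ± 0.34, 0.0128). Hmox1, which breaks haem down, was higher in Cpt2KO (2.59 ± 0.48, 0.000522) and TKO (1.84 ± 0.47, 0.00728).

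Counted by list, 17 of 18 receptors and regulators were tested, of which 0, 5, 5 and 5 were lower and 0, 1, 1 and 0 higher in Cpt1DKO, Cpt2KO, TKO and Cpt2PparaDKO. Beside these stand 3.1%, 17.2%, 14.4% and 17.6% of all genes called lower and 2.44%, 16.2%, 13% and 14.9% called higher. Of 14 genes of electron supply and haem synthesis, 1, 5, 7 and 8 were lower and 0, 2, 1 and 0 higher in that order. Of 19 tested CAR, PXR and AHR targets outside the P450 family, 1, 7, 4 and 7 were lower and 1, 3, 2 and 5 higher. Their median log2 fold change in Cpt2PparaDKO was 0.18, and they moved both ways. Gstm3 averaged 8.23 ± 1.64 CPM in Control and 324 ± 244 in Cpt2PparaDKO, and Ugt1a9 146 ± 18.3 and 52.5 ± 7.27 CPM. The part of CAR, PXR and AHR in these values was not tested.

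Some markers of liver zones and cell types also changed, and their part in the members' values was not tested. Of 12 other genes of hepatocytes around the central vein, such as Glul and Oat, 2, 9, 8 and 6 were lower in Cpt1DKO, Cpt2KO, TKO and Cpt2PparaDKO. Of 10 genes of hepatocytes around the portal vein, 0, 7, 7 and 6 were lower. Of the 5 hepatocyte markers, 1, 3, 3 and 4 were lower. The shares of all genes called lower were 3.1%, 17.2%, 14.4% and 17.6% in that order. Some listed genes had higher means than in Control. In Cpt2KO the central gene Axin2 averaged 23.2 ± 9.32 CPM against 15.3 ± 4.26 in Control. The portal gene Hsd17b13 averaged 1383 ± 245 against 461 ± 26.3 CPM in the same groups. Apoa1 averaged 11916 ± 897 CPM in Cpt1DKO against 8865 ± 691 in Control. Kupffer and macrophage markers summed to 160 to 302 CPM in Control, and to 180 to 222, 165 to 308, 129 to 216 and 288 to 336 CPM in the same order of mutant groups, each overlapping Control. Of that list Cd68 averaged 8.47 ± 2.69 CPM in Control and was higher in Cpt2KO (40.3 ± 13.5), TKO (34.3 ± 3.14) and Cpt2PparaDKO (75.1 ± 24.7). The rest of the list (Clec4f, Vsig4, Adgre1, Csf1r and C1qa) did not follow Cd68. Their means were all lower in TKO than in Control, and in Cpt2KO lay within a Control SD of the Control mean. In Cpt2PparaDKO they did so too, except Adgre1 at 17.6 ± 1.94 CPM against 11.8 ± 4.49 in Control. Endothelial markers summed to 128 to 292 CPM in Control and to 222 to 263, 154 to 219, 136 to 222 and 204 to 250 CPM in that order, overlapping it. Stellate markers summed to 173 to 207 CPM in Control and to 226 to 277, 230 to 329, 195 to 240 and 226 to 270 CPM, wholly above Control in all but TKO. Cholangiocyte markers summed to 29.7 to 35.4 CPM in Control and to 18.5 to 26.5, 7.61 to 15, 10.7 to 20.5 and 20.2 to 49.7 CPM, wholly below Control in all but Cpt2PparaDKO. Lymphocyte markers reached at most 20.8 CPM and neutrophil markers 3.13 CPM in any library. The neutrophil marker Ly6g was at 0 in all libraries of Control, Cpt1DKO, TKO and Cpt2PparaDKO, and Mpo in those of Control and Cpt1DKO.

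The 18 members that were not tested were low. Cyp2b23, Cyp2c66, Cyp2j7, Cyp2j11 and Cyp2j12 had 0 counts in all 20 libraries. Cyp2ab1, Cyp2b19, Cyp2d34, Cyp2j13, Cyp2w1 and Cyp3a57 had 4 counts or fewer, Cyp2d12 11 or fewer and Cyp2c65 31 or fewer in any library. The remaining 5 were Cyp2b13, Cyp3a16, Cyp3a41a, Cyp3a41b and Cyp3a44, whose counts lay almost wholly in the libraries with Xist.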

How the data were processed

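Liver RNA of 20 libraries, 4 in each of 5 genotype groups, was measured by RNA sequencing. The authors deposited a table of read counts and another of FPKM values (reads scaled to gene length and library size), each with a column for every library, per the file headers. Reads were aligned with HISAT2 to GRCm39 (mm39), per the submitters' processing notes. Neither the HISAT2 version nor the counting tool, its use of strand or its gene models is known, as they were not given in the sources used here.

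Groups came from the genotype labels. Counts were tested with edgeR 4.0.16 (R 4.3.3, limma 3.58.1; TMM scaling, filterByExpr with a minimum count of 10, glmQLFit and glmQLFTest with robust estimation) in 1 model of the 5 groups over 20 libraries, two-sided, for 7 comparisons. Benjamini-Hochberg adjustment ran over all 15669 genes tested, with calls at 0.05. The common biological coefficient of variation was 0.233 with a prior of 6.27 degrees of freedom. The SE of a log2 fold change is its size divided by the square root of F. CPM are counts per 1000000 of TMM-scaled library size, and FPKM served only to compare levels between genes. Replicates differed by far more than counting noise (chi-square per degree of freedom 12.5 to 168), so none was merged. The test was checked on simulated data.

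Every member may be named. Single-library values and fold changes are given for members called in at least 1 comparison with a mean of at least 20 CPM in a group, and for a short list that includes all Cyp1 genes and the female Cyp2b and Cyp3a forms. Cyp2c40 and Cyp2c69, chosen for their spread, are given outside that rule. The members and gene lists were chosen with earlier results of these data known. Alternatives were DESeq2 1.42.0, its size factors in edgeR, no count filter, 2-group fits, a replicate block, a term for the Xist pattern, and leaving out single libraries or the 2 with Xist. Coding identity came from the longest reading frames of GENCODE M21 transcripts (61 of 62 members matched), and promoters from a RefSeq table (GRCm38.p6, 53 matched). Gene coordinates are those of the deposited count table.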

Additional observations from a re-analysis of the deposited data

Results flagged for a closer look

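Each value below stood apart in its group of 4 libraries. Its gap to the nearest of the others, divided by the range of the group, was over Dixon's critical value. The 185 groups of member values examined included groups with every library under 1 CPM. Only a group whose highest library reached 1 CPM could be flagged. Chance flags about 1 in 20 such groups, but their number was not counted, so the flagged values cannot be compared with that rate. Of the 26 flagged values 18 belonged to a library with Xist.

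In replicate 3 of Cpt2KO, which has Xist, Cyp2b9 stood at 363 CPM, Cyp2b13 at 68.0, Cyp3a41b at 10.2, Cyp3a44 at 2.82, Cyp3a41a at 2.12 and Cyp2c37 at 102 CPM, each above the other 3 libraries. In replicate 4 of Cpt2PparaDKO, the other library with Xist, Cyp2a4 stood at 2051 CPM, Cyp2b10 at 217, Cyp2c70 at 131, Cyp2b9 at 130, Cyp3a44 at 35.2, Cyp3a41a at 33.9, Cyp2b13 at 32.8, Cyp3a41b at 18.5 and Cyp3a16 at 2.10 CPM, above the rest of the group. In that library Cyp2f2 at 119, Cyp2d22 at 96.8 and Cyp2c23 at 38.6 CPM were below it.

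Replicate 2 of TKO was high for Cyp2e1 (11199 CPM), Cyp3a11 (1767 CPM), Cyp3a13 (171 CPM) and Cyp2c70 (25.2 CPM), and replicate 4 of TKO was low for Cyp2c23 (58.1 CPM). In Control, Cyp2b9 reached 35.7 CPM in replicate 4, Cyp2c29 612 CPM in replicate 3, and Cyp2j5 was lowest at 418 CPM in replicate 1.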

How the results depend on the processing

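Counts of members called lower in Cpt2KO, TKO and Cpt2PparaDKO against Control stayed within 1.5 times under the 8 alternatives, with 25 to 29, 24 to 27 and 22 to 25 when single libraries were left out. The 9 lower members of Cpt1DKO became 4 with no filter on low counts, 14 with DESeq2, 15 without the libraries with Xist, 18 in a fit of these 2 groups, and 2 to 11 when single libraries were left out. The 1 member higher in Cpt2KO became 0 with no filter, with the Xist pattern as a term, without the libraries with Xist and in a 2-group fit, and 0 to 1 with single libraries left out. DESeq2 called 1 member higher in TKO (0 to 1 with single libraries left out), 3 higher in Cpt2PparaDKO (1 to 4; 4 without its replicate 3) and 1 lower in TKO against Cpt2KO. Between Cpt2KO and Cpt1DKO the higher count became 0 with no filter and in a 2-group fit (0 to 1 with single libraries left out), and the lower count ran 7 to 12, with 8 without replicate 4 of Cpt2KO or replicate 3 of Cpt1DKO. Between Cpt2PparaDKO and Cpt2KO a 2-group fit called 7 higher, and leaving out single libraries gave 11 to 16 higher and 2 to 4 lower (4 without replicate 4 of Cpt2PparaDKO). The cause of these changes was not tested.

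Against Control in Cpt2PparaDKO, no called member reversed, while uncalled log2 fold changes did. Cyp2c29 (0.02) became -0.04 with the replicate block, -0.04 with the Xist pattern as a term, and from -0.38 (without replicate 1 of Cpt2PparaDKO) to 0.35 with single libraries left out. Cyp2c70 (0.33) became -0.50 with the Xist term and -0.68 without the libraries with Xist, with -0.68 (without replicate 4 of Cpt2PparaDKO) to 0.64 when single libraries were left out. Cyp2b9 (1.77) became -5.65 with the Xist term, -8.28 without the libraries with Xist and -8.30 (without that replicate) to 5.52 when single libraries were left out. Cyp2a5 (0.56) became -0.00 without the libraries with Xist, with -0.00 (without that replicate) to 0.81 when single libraries were left out. Of 120 called gene results, 89 were called in every fit that left out 1 library, and 90 were called under all of the other 7 alternatives.

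Replicate numbers did not pair the libraries. Correlations of same-numbered deviations ran from -0.201 to 0.233, 4 of 40 were over 0.1, and 3 of 20 libraries correlated best with their own number. With the replicate number as a block, lower members numbered 8, 28, 28, 23, 11, 0 and 2 in the 7 comparisons, in the order used in the text for Cpt1DKO, Cpt2KO, TKO and Cpt2PparaDKO against Control, then Cpt2KO against Cpt1DKO, TKO against Cpt2KO and Cpt2PparaDKO against Cpt2KO, and higher members 0, 1, 0, 1, 1, 0 and 11. The other scalings moved the median of all genes by at most 0.02 on the log2 scale. The 18 members that did not pass the count filter were not tested, and 4 libraries a group limit what a missing call can say.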
